A study of Mus musculus with 14 samples.

Results

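The regions described here are sites where C/EBPβ was found in mesoderm, in hemangioblasts, in hematopoietic progenitors and in macrophages, and they are called held regions. They were chosen by the presence of C/EBPβ peaks themselves: the peaks of the 5 C/EBPβ lists were merged wherever they shared at least 1 bp, and a merged region was kept when it held a peak in the 4 lists named, with or without a peak in hemogenic endothelium. Of 56276 merged C/EBPβ regions, 317 met this rule, among 117292 merged regions of all 14 lists of the series. That these regions carry C/EBPβ at 4 stages is therefore how they were selected and is not a result.

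The lists come from ChIP-seq, the sequencing of DNA recovered by chromatin immunoprecipitation, in cells differentiated from a mouse embryonic stem cell line of strain 129 with a GFP reporter of Brachyury. Mesoderm (MES) was sorted as Bry.GFP+ and FLK1- cells, and hemangioblasts (HB), which give rise to blood and endothelium, as Bry.GFP+ and FLK1+ cells. Hemogenic endothelium (HE) was labelled Bry.GFP+ with Tie2+/Ckit+/CD41-, hematopoietic progenitors (HP) were CD41+, and macrophages (MAC), grown from the CD41+ cells, were CD11b+. The same antibody, Santa Cruz sc150, was used against C/EBPβ at every stage, and 9 further lists describe PU.1 (encoded by Spi1), RUNX1, GATA1, GATA2, GFI1B and ELK4. All cells descend from 1 reporter line, and every combination of factor and stage had 1 list. No difference could thus be set against a spread between replicates, and each test below compares sets of regions and not conditions. A peak list holds no expression, so the sorted populations could not be checked against their marker genes. For the HE immunoprecipitation, made from few cells, carrier mRNA and recombinant histone 2B were added.

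C/EBPβ is a basic leucine zipper factor that binds DNA as a dimer. Dimers within the C/EBP family recognise a palindromic site made of 2 half-sites, whereas dimers of a C/EBP protein with a member of the ATF family recognise a composite site, the C/EBP-ATF response element of genes induced by amino acid shortage and by stress of the endoplasmic reticulum. C/EBPβ is best known in blood for its part in myeloid and macrophage gene expression.

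To show what lies under the held peaks, windows of 80 bp at the mean of a region's peak centres are printed for the regions in which a C/EBP octamer lay closest to that centre. The C/EBP octamer was any of TTGCACAA, TTGCATAA, TTGCGCAA or TTGCGTAA on either strand. All sequences are RefSeq sequence of GRCm38, plus strand, with the matched letters in capitals, and a window that meets an annotated untranslated exon was shortened to 28 bp around the match. In each of these 6 regions the match was the same self-complementary octamer, TTGCGCAA.
Fzd5, chr1:64753204-64753283: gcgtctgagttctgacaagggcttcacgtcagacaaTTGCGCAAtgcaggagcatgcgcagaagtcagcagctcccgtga
Mpc2, chr1:165461032-165461111: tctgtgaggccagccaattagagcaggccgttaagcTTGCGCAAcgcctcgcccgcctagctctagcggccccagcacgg
Btbd19, chr4:117120544-117120571: tttgggcccaTTGCGCAAtccctactct
Ptpn12, chr5:21054521-21054600: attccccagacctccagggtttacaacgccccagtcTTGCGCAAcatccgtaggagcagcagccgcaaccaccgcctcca
Foxf2, chr13:31625815-31625842: taggagacggTTGCGCAAggagccggcc
Ndrg1, chr15:66969780-66969859: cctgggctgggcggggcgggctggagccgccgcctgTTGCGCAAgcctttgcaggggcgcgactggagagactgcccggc

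The composite was searched as TGANGCAA on either strand. It shares the end GCAA with the octamer, and no 8 letters can be both. The 4 regions shown, taken in genomic order from those with a composite within 1 bp of the mean centre, were near Stk40, E030018B13Rik, Smad3 (a mediator of TGF-β signals) and Taco1.
Stk40, chr4:126103252-126103331: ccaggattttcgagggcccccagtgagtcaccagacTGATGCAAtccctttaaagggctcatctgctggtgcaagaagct
E030018B13Rik, chr7:63896990-63897069: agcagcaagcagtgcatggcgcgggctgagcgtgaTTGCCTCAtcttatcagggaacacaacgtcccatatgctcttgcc
Smad3, chr9:63793823-63793902: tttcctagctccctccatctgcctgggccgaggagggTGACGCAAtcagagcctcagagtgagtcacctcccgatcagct
Taco1, chr11:106065902-106065981: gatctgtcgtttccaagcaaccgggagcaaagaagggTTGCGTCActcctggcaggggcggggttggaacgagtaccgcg

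The held regions made up different parts of the lists that chose them. They took 317 of 715 HB peaks (44.3%), 317 of 1177 MES peaks (26.9%), 317 of 2716 HP peaks (11.7%) and 317 of 55471 MAC peaks (0.571%), and 21 of 132 HE peaks (15.9%) also lay in them. The p-value threshold of each list was set by the authors by eye, and among the C/EBPβ lists it was loosest for MAC and strictest for HE. These shares therefore do not measure how much of the binding was retained. For C/EBPβ in MES and HB the paper lists no enrichment by quantitative PCR, and it states that such samples were sequenced all the same. No held region held 2 peaks of the same stage.

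Within a held region the peaks of different stages lay close to each other. The authors centred each 400 bp peak on its summit, so a peak centre stands for the summit. The centres of the MES, HB, HP and MAC peaks spanned a median of 29 bp, with a range of 3 to 369 bp, and in 258 of 317 regions they spanned at most 50 bp. Against the MAC centre, the median distance was 12 bp for MES, 11 bp for HB, 11 bp for HP and 17 bp for the 21 HE peaks. The merged regions were 404 to 769 bp wide, with a median of 430 bp. These distances are a description, since the rule itself required the peaks to overlap. The distances by stage show MES, HB and HP centres at similar distances from those of MAC, while 8 regions spanned more than 100 bp.

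**Figure D1:**
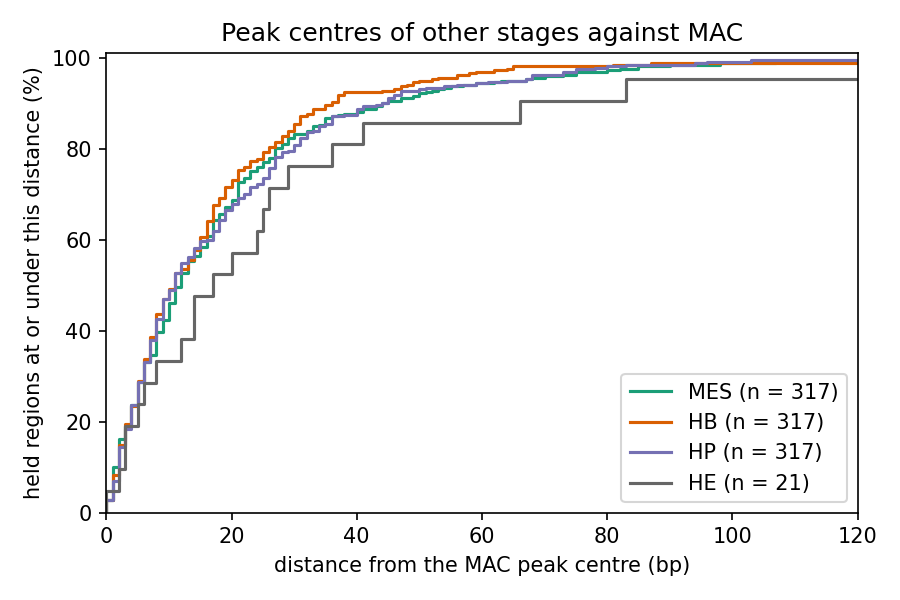
Distance (bp) from the MAC peak centre to the centre of the MES, HB, HP or HE peak of the same held region (x axis) against the share of held regions at or under that distance (y axis, %). The curves of MES, HB and HP run together, with 77.0%, 79.2% and 73.5% of 317 regions within 25 bp, and 14 of 21 HE peaks lie within 25 bp; the axis ends at 120 bp, beyond which a few regions follow.

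The regions with the least overlap between neighbouring peaks were a pair at Nfil3, a bZIP repressor gene. Neighbouring peaks shared 41 bp in chr13:52981111-52981879 and 75 bp in chr13:52980045-52980779, and the next lowest value was 164 bp near Aloxe3. Just outside the rule, a region near Kifbp with MES, HB and HP peaks lay 146 bp from the nearest MAC peak, and a region near Isx lay 554 bp from the nearest HB peak. Regions that lacked 1 of the 4 lists numbered 233 for HB, 85 for MES, 43 for HP and 6 for MAC.

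With respect to genes, the held regions were often at promoters. A region counted as promoter-proximal if no more than 2 kb separated its mean centre from a TSS, the start site of a curated RefSeq coding transcript, and 157 of 317 (49.5%, exact 95% interval 43.9% to 55.2%) were. Of all 56276 C/EBPβ regions, 52702 (93.6%) had a peak in MAC alone. Shares over all C/EBPβ regions, here and below, therefore describe mainly the MAC list. The promoter-proximal share over all of them was 16.2%. Among regions bound in MES only it was 11 of 377 (2.92%), and the difference of 46.6 percentage points (40.7 to 52.2) passed Fisher's exact test (two-sided, adjusted p 8.4e-50). Among regions bound in HP and MAC only it was 460 of 1831 (25.1%), a difference of 24.4 points (18.6 to 30.2, adjusted p 1.8e-16, Fisher's exact test). Adjusted p-values here and below are Benjamini-Hochberg values over 63 tests, 21 features in 3 comparisons, unless stated otherwise. Values for regions taken by the place of their peak in a list were adjusted within that setting, over fewer tests.

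The promoter-proximal members were mostly very close to the start site. A total of 114 held regions (36.0%) lay within 500 bp of a coding TSS, and 86 of these 114 were centred upstream of it. A further 79 (24.9%) lay at 10 to 50 kb and 28 (8.83%) beyond 100 kb. By the RefSeq annotation, the mean centre lay between genes in 132 regions, in an intron in 105, in an untranslated exon in 47, in an exon of a noncoding RNA in 25 and in coding sequence in 8. The plot of these distances shows the held regions with a peak near the start site, where the MES-only regions were nearly absent with 2 of 377.

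**Figure D2:**
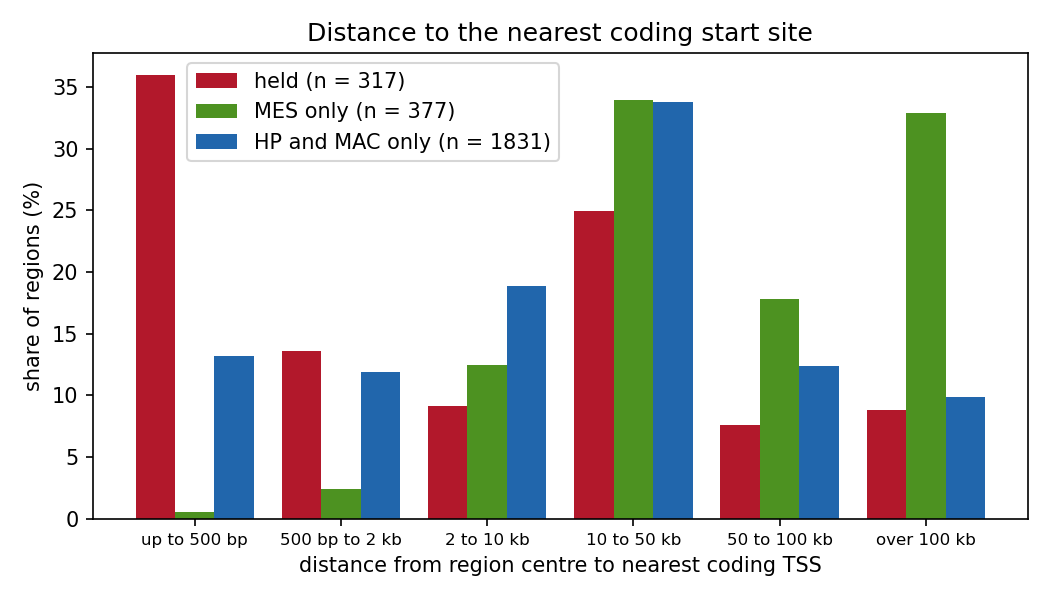
Share of regions (y axis, %) by distance from the region centre to the nearest coding TSS (x axis, classes of distance) for held, MES-only and HP-and-MAC-only regions. The held regions have 36.0% within 500 bp against 0.531% and 13.2% in the other classes, and 32.9% of MES-only regions lie beyond 100 kb against 8.83% of held regions.

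The held regions were rich in CpG. A window was called CpG-rich when its GC content was at least 50% and its observed over expected CpG ratio at least 0.6. This was so in 126 of 317 held regions (39.7%, 34.3% to 45.4%), where all C/EBPβ regions had 7.13%. It was so in 2 of 377 MES-only regions (0.531%, adjusted p 3.5e-46) and in 204 of 1831 HP-and-MAC-only regions (11.1%, adjusted p 1.5e-30, both by Fisher's exact test). Of the 157 promoter-proximal members 105 were CpG-rich (66.9%), and of the 160 distal members 21 (13.1%).

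The C/EBP octamer was the most frequent feature of the held regions. It was present in the 400 bp window of 218 of 317 (68.8%, 63.4% to 73.8%), where all C/EBPβ regions had 14.8%. It was present in 41 of 377 MES-only regions (10.9%), a difference of 57.9 points (51.5 to 63.5, adjusted p 4.6e-57), and in 655 of 1831 HP-and-MAC-only regions (35.8%), a difference of 33.0 points (27.2 to 38.3, adjusted p 9.0e-27, both by Fisher's exact test). Distal members held it in 122 of 160 (76.2%) and promoter-proximal members in 96 of 157 (61.1%). Among promoter-proximal regions alone, the difference from the 11 MES-only regions was 43.0 points with an adjusted p of 0.0734 (Fisher's exact test).

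Each held region was also compared with its own surroundings. The windows 2 kb upstream held an octamer in 7 regions (2.21%) and those 2 kb downstream in 8 (2.52%). The octamer was in the window and not in the flank in 212 regions on either side, and in the flank alone in 1 and 2 regions (exact McNemar tests, adjusted p 6.5e-62 and 1.7e-60 over the 2 tests). As a further scale, 683 of 32851 RefSeq promoter sequences of 300 bp (2.08%) held an octamer and 1213 (3.69%) a composite. The octamers were placed at the peak centres: of the 218 members with one, 159 had it within 10 bp of the mean centre and 204 within 25 bp, with a median distance of 6 bp. The plot of octamer positions shows this as a single narrow rise at the centre, with the bins beyond 150 bp at the level of the flanks.

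**Figure D3:**
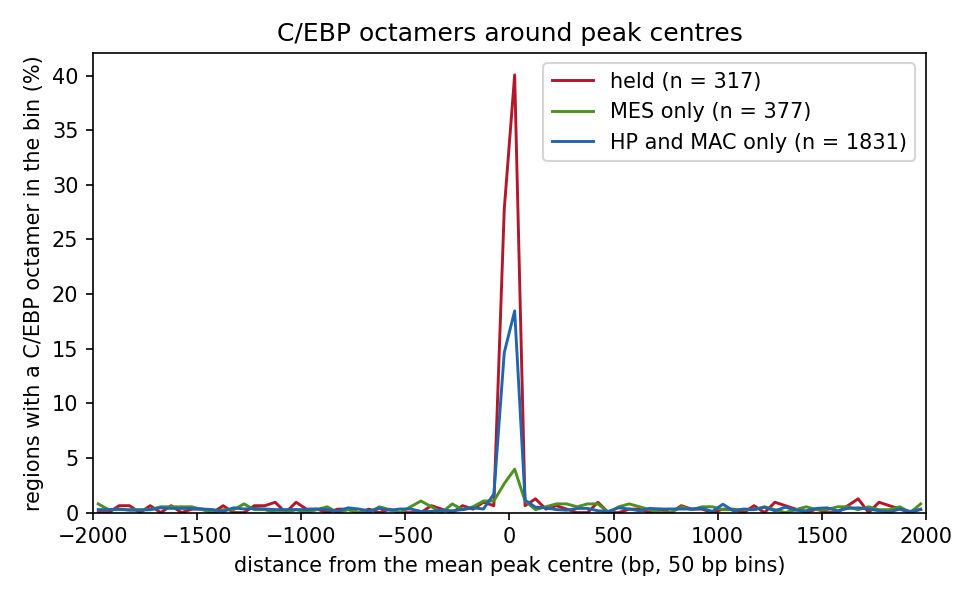
Distance from the mean peak centre (x axis, bp, in bins of 50 bp) against the share of regions with a C/EBP octamer in the bin (y axis, %), for held, MES-only and HP-and-MAC-only regions. In the held regions 27.8% and 40.1% have an octamer in the 2 bins that meet at the centre, and the curves of the other classes rise less there.

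The 4 forms of the octamer were not equally common. The self-complementary form, TTGCGCAA, was in 138 of 317 held regions (43.5%), against 1.45% of all C/EBPβ regions, 104 of 1831 HP-and-MAC-only regions (5.68%) and 8 of 377 MES-only regions (2.12%). TTGCACAA was in 43 held regions (13.6%) against 375 HP-and-MAC-only regions (20.5%), and TTGCGTAA in 33 (10.4%) against 100 (5.46%). TTGCATAA was in 12 held regions (3.79%) and in 93 HP-and-MAC-only regions (5.08%). TTGCGCAA was more common in distal members, with 85 of 160 (53.1%), than in promoter-proximal ones, with 53 of 157 (33.8%), and it was in 94 of the 191 members that were not CpG-rich (49.2%). The forms were compared after the total had been seen, so these shares are given without a test.

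The composite was found in 42 of 317 held regions (13.2%, 9.72% to 17.5%), where all C/EBPβ regions had 15.4%. The share was 10.1% in MES-only regions, and the difference of 3.17 points (-1.60 to 8.11) did not pass (adjusted p 0.431, Fisher's exact test). It was 20.6% in HP-and-MAC-only regions, which was higher than in held regions by Fisher's exact test (held minus other -7.34 points, -11.1 to -2.80, adjusted p 0.00726). That call was lost among promoter-proximal regions alone, where the difference was -5.60 points with an adjusted p of 0.679. The composite too sat near the centre, within 25 bp in 33 of the 42 members. TGATGCAA was the form in 20 members and TGACGCAA in 16. Together, an octamer or a composite was present in 252 of 317 held regions (79.5%), and 8 held both.

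Sites of other factors were less frequent. The PU.1 motif GAGGAAGT was in 6 held windows (1.89%) against 7.95% of all C/EBPβ regions, the RUNX motif TGTGGTT in 19 (5.99%) against 11.1%, and the GATA motifs AGATAAG or AGATAAC in 21 (6.62%) against 8.02%, all searched on both strands. Each was less frequent in held than in HP-and-MAC-only regions by Fisher's exact test, where the shares were 9.50% (adjusted p 2.8e-06), 15.1% (adjusted p 1.6e-05) and 11.4% (adjusted p 0.0279). The ELK4 motif CCGGAAGT, an ETS site of promoters, was in 21 held windows (6.62%) against 1.15% of all C/EBPβ regions and 29 of 1831 HP-and-MAC-only regions (1.58%, adjusted p 1.0e-05, Fisher's exact test). The CRE motif TGACGTCA was in 9 (2.84%) against 1.04% of all, and the AP-1 motifs TGACTCA or TGAGTCA in 29 (9.15%) against 17.8%; neither difference from HP-and-MAC-only regions passed (1.58 points, 0.107 to 4.09, adjusted p 0.0988, and -3.74 points, -6.89 to 0.219, adjusted p 0.140, Fisher's exact test). The CRE motif was more frequent than in MES-only regions, of which 1 of 377 held it (adjusted p 0.0219, Fisher's exact test). The difference was not called among regions with the MES peak in the last 50% of its list (1 of 51 against 1 of 301). There the adjusted p was 0.754 by Fisher's exact test, over the tests of that setting alone.

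Peaks of other factors were then counted at the held regions. A total of 162 of 317 regions (51.1%) met none of the 9 other lists, 118 met 1, 30 met 2 and 7 met 3 or more. By far the most common partner was PU.1 in macrophages, the ETS factor that specifies the myeloid lineage, with 142 members (44.8%, 39.2% to 50.5%), and 108 members met that list alone. All C/EBPβ regions met it at 42.0%, so the members' share is near the background. It was 59.9% in HP-and-MAC-only regions, which was higher than in held regions (difference -15.1 points, -20.9 to -9.17, adjusted p 4.3e-06, Fisher's exact test), and 1.86% in MES-only regions. Distal members met it in 33.8% and promoter-proximal ones in 56.1%. Among promoter-proximal regions alone the difference from HP-and-MAC-only regions was -5.91 points and was no longer called (adjusted p 0.822, Fisher's exact test).

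PU.1 in HP, a stage at which C/EBPβ was also mapped, was met by 19 members (5.99%) against 7.05% of all C/EBPβ regions. HP-and-MAC-only regions met it in 351 of 1831 cases (19.2%), a difference of -13.2 points (-16.0 to -9.55, adjusted p 2.6e-09, Fisher's exact test). Where a held window met a PU.1 peak, the median distance between the C/EBPβ and PU.1 centres was 91 bp in MAC and 75 bp in HP. In HP-and-MAC-only regions it was 59 bp and 53 bp.

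The repressor GFI1B in HP was met by 20 members (6.31%) against 0.974% of all C/EBPβ regions, and RUNX1 in HP by 10 members (3.15%) against 0.709%. Neither difference from HP-and-MAC-only regions passed: GFI1B was at 3.60% there (difference 2.70 points, 0.317 to 6.03, adjusted p 0.0711) and RUNX1 at 2.79% (0.369 points, -1.30 to 3.01, adjusted p 1, Fisher's exact test). GATA2 in HP was met by 4 members (1.26%) against 0.299%, and GATA1 in HP by 3 (0.946%) against 0.105%. In HP-and-MAC-only regions the shares were 1.97% for GATA2 and 0.874% for GATA1, and neither difference from held regions was called. ELK4 in MES was met by 6 members (1.89%) against 0.256%, among them regions near Mpc2, Nup35, Dnajb6, Mideas and Rpp21. ELK4 differed from HP-and-MAC-only regions, of which 7 (0.382%) met it (adjusted p 0.0219, Fisher's exact test), but without the 2 members that lie in regions of 9 or more lists the difference was 1.21 points in place of 1.51 and the adjusted p 0.0544. The call was also lost in distal regions alone (0.552 points, adjusted p 0.440) and in promoter-proximal regions alone (1.88 points, adjusted p 0.731). RUNX1 in MAC and GATA2 in HB were each met by 1 member. Against MES-only regions, 5 of the 9 lists were called higher in held regions, with shares of at most 1.86% in MES-only regions. The count was 3 in distal regions alone, 1 in promoter-proximal regions alone and 3 with the MES peak in the last 50% of its list. Apart from ELK4 in MES, the 5 called lists were PU.1 in HP and in MAC, RUNX1 in HP and GFI1B in HP. At these stages held regions have a C/EBPβ peak by the rule and MES-only regions have none. Those calls thus cannot be told apart from the selection.

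**Figure D4:**
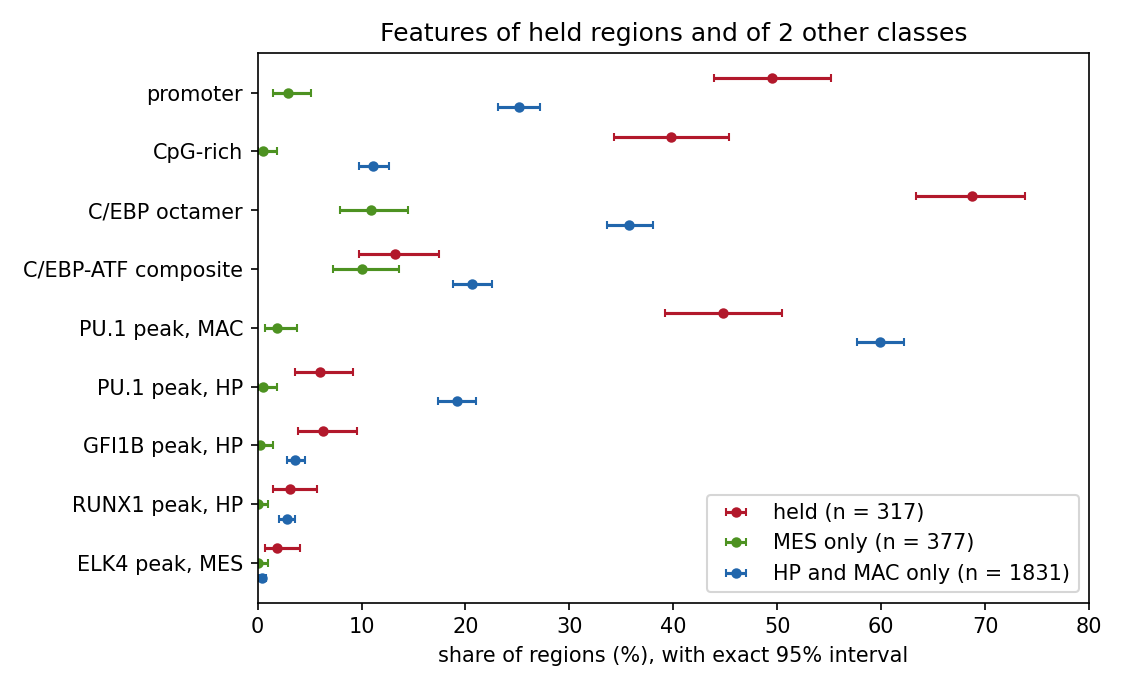
Share of regions with each feature (x axis, %, points with exact 95% intervals, which cover counting error only) for 317 held, 377 MES-only and 1831 HP-and-MAC-only regions. Held regions lie above both other classes for promoter position, CpG-rich sequence and the C/EBP octamer, and between them for PU.1 peaks in MAC (44.8% against 1.86% and 59.9%).

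Regions with a peak in MES and in HB and in no later C/EBPβ list numbered 8. Of these, 2 were promoter-proximal, 3 held an octamer and none met PU.1 in MAC. PU.1 in MAC (difference 44.8 points, 11.9 to 50.3, adjusted p 0.0279) and the GATA motif, in 3 of 8 (adjusted p 0.0392), were the only features called by Fisher's exact test. The PU.1 call was lost, at differences of similar size, in distal regions alone (33.8 points, adjusted p 0.426, 6 regions to compare with) and in promoter-proximal regions alone (56.1 points, adjusted p 0.822, 2 regions), and when peaks had to share 200 bp (33.1 points, adjusted p 0.130). With 8 regions the intervals of the other differences were too wide to show likeness. The 8 regions lack a C/EBPβ peak in MAC by definition, so the PU.1 call cannot be told apart from the selection.

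The place of a held region in the deposited lists was recorded, because the lists were not sorted by position. What sets their order is not given in the sources used here. The median place of the held regions was 221 of 1177 in MES, 202 of 715 in HB, 351 of 2716 in HP and 2657 of 55471 in MAC, and 220 of 317 members stood in the first 10% of the MAC list. In the MES, HB, HP and MAC lists the octamer share was highest in the first 20% of the list: in MES it was 68.9% there and 21.2% in the last 20%, and in HP it was 52.1% and 34.6%. The plot of places shows these 4 lists with held regions gathered towards the start, most of all in MAC.

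**Figure D5:**
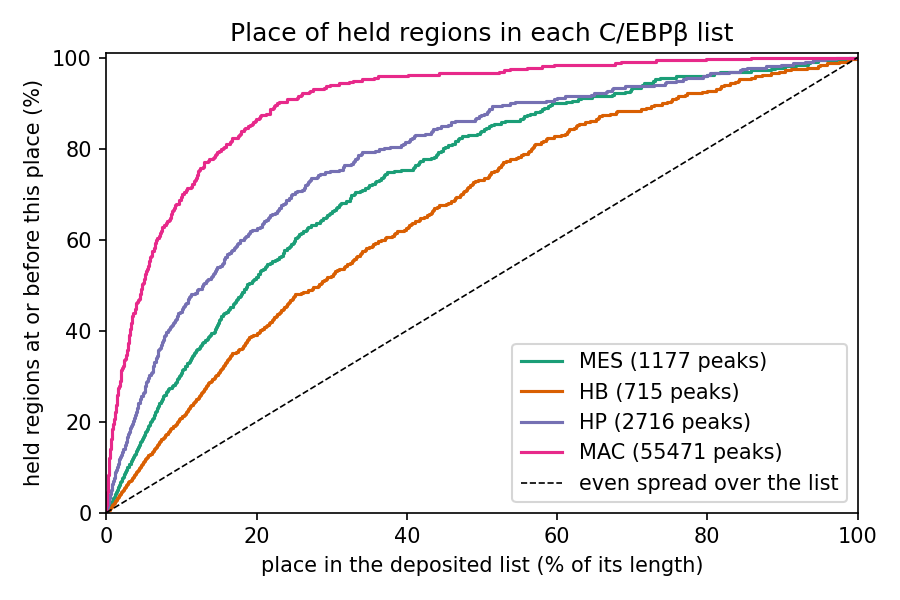
Place of the held region's peak in each deposited C/EBPβ list, as a percentage of the length of the list (x axis), against the share of the 317 held regions at or before that place (y axis, %). All 4 curves lie above the dashed line of an even spread, with median places at 18.8% of the MES list, 28.3% of HB, 12.9% of HP and 4.79% of MAC.

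The comparisons were therefore repeated among regions of like place, a choice made after the data were seen. Among regions whose HP peak stood in the first 20% of the HP list, 136 of 197 held regions (69.0%) and 104 of 225 HP-and-MAC-only regions (46.2%) held an octamer, a difference of 22.8 points (13.4 to 31.6, adjusted p 1.4e-05, Fisher's exact test over 21 features). Promoter-proximal regions were 57.9% and 23.1%, and CpG-rich regions 45.2% and 8.89% (adjusted p 3.5e-12 and 1.1e-16, Fisher's exact test). Among regions whose MES peak stood in the last 50% of the MES list, 27 of 51 held regions (52.9%) and 22 of 301 MES-only regions (7.31%) held an octamer (adjusted p 1.2e-12, Fisher's exact test). The calls lost among regions of like place were, against HP-and-MAC-only regions, the composite (-7.88 points, adjusted p 0.0882), ELK4 in MES (1.59 points, adjusted p 0.284) and tRNA genes. Against MES-only regions they were PU.1 in HP (3.59 points, adjusted p 0.214), ELK4 in MES and the ELK4 motif (3.92 points and adjusted p 0.108 each) and the CRE motif. Whether place accounts for part of the remaining differences was not tested.

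Of the held regions, 9 (2.84%) lay within 500 bp of a tRNA gene, where all C/EBPβ regions had 0.386%. None of 377 MES-only regions and 17 of 1831 HP-and-MAC-only regions (0.928%) did so (adjusted p 0.00301 and 0.0261, Fisher's exact test). The latter call was lost among regions with the HP peak in the first 20% of its list (8 of 197 against 2 of 225, adjusted p 0.0882). The former could not be tested at like place, since none of the 51 held regions with the MES peak in the last 50% of its list lay near a tRNA gene. By definition these 2 classes have no HE peak, whereas held regions may have one. Of the 9 held regions near a tRNA gene, 8 had an HE peak. Among held regions without an HE peak, the share was 1 of 296 (0.338%). Both calls thus cannot be told apart from how the classes were defined. A C/EBPβ peak in HE, where the list was shortest, was present at 21 of the 317 held regions. These were set against the 296 without one, with p-values adjusted over 21 features. Where regions near tRNA genes were left out, the tRNA gene feature was left out of the adjustment too. The HE-bound members lay within 500 bp of a tRNA gene in 8 of 21 cases (38.1%), and the others in 1 of 296 (0.338%), a difference of 37.8 points (20.3 to 58.8, adjusted p 1.6e-08, Fisher's exact test). In the whole HE list, 107 of 132 peaks lay near a tRNA gene, a higher share than among the HE-bound members. A split by HE peak thus largely set this outcome in advance, and the test shows no trait of held regions beyond it. The B box of tRNA genes, searched as GTTCNANNC, was in 42.9% against 12.5% (adjusted p 0.0107, Fisher's exact test) and in 13.6% of all C/EBPβ regions, and without regions near tRNA genes the difference turned to -4.51 points (adjusted p 1). For the octamer, at 71.4% against 68.6% (difference 2.85 points, -19.1 to 18.6), and for promoter position, at 47.6% against 49.7% (difference -2.04 points, -22.1 to 18.8), the difference did not pass (adjusted p 1 each, Fisher's exact test). Without regions near tRNA genes the octamer difference was 23.5 points (adjusted p 0.394, Fisher's exact test).

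The 8 HE-bound members at tRNA genes were next to 4 genes for tRNA-Asn (n-TNgtt6, n-TNgtt14, n-TNgtt7 and n-TNgtt8) and to n-TSgct7, n-TPtgg7, n-TLtag3 and n-TIaat17. An octamer within 50 bp of the centre was present in 1 of the 8, at n-TPtgg7 upstream of Elf2. The window at n-TNgtt14, upstream of Alox5ap, is printed as an example with neither motif.
n-TNgtt14, chr5:149229046-149229125: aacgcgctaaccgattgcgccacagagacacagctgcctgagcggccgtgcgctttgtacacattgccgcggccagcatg

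The other 13 HE-bound members held an octamer in 12 cases, and 7 of them were promoter-proximal. The first region of the MES, HB, HP and MAC lists was among them, 91 bp upstream of Cotl1, which encodes an actin-binding protein, at chr8:119840464-119840873. Its place in the HE list was 35, its 4 peak centres spanned 8 bp, and it was CpG-rich and met PU.1 in MAC.
Cotl1, chr8:119840630-119840709: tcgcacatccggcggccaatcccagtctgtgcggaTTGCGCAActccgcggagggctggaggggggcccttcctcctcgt

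Also early in the lists were the promoter of Rad23b, a DNA repair gene, with places of 2 for MES, 7 for HB, 7 for HE, 3 for HP and 40 for MAC, and the region in Btbd19, with places 4, 2, 23, 7 and 2. Both regions stood near the start of the MES, HB, HP and MAC lists. The promoter region of Rpia, a gene of the pentose phosphate pathway, had places 10, 12, 24, 15 and 75 in the same order. The intron of Ptpn12, which encodes a tyrosine phosphatase, had places 6, 21, 93, 85 and 476, and its 4 centres spanned 3 bp. The remaining octamer-bearing members were near Rcn1, Tal1, Klrb1b, Sbf2, Ctr9 (a subunit of the PAF1 elongation complex), Sec23ip and Cdkl4. TTGCGCAA was the form, or one of the forms, in 12 of the 15 HE-bound members with an octamer.

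The HE-bound member without an octamer or a tRNA gene, at chr17:36231208-36231612, lay 26437 bp from the start of Rpp21 and met all 9 other lists, so that it had a peak in each of the 14 lists. Its place was 682 for MES, 162 for HB, 31 for HE, 2318 for HP and 38012 for MAC. It thus stood late in the lists of MES, HP and MAC, unlike most held regions. It was CpG-rich, its 4 centres spanned 5 bp, and no other held region met more than 4 further lists.

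The members that met the most other lists were led by the Rpp21 region and by a region in Tal1, which encodes a bHLH regulator of blood formation. The Tal1 region at chr4:115056815-115057226 lay 593 bp within the gene, in an untranslated exon, and met PU.1 in HP and MAC, GATA1 in HP and GATA2 in HP. Its place was 57 for MES, 74 for HB, 72 for HE, 2 for HP and 9 for MAC. A second held region lay 21180 bp upstream of this start, in an intron of Stil, with places 81, 140, 106 and 682 in MES, HB, HP and MAC and no peak in HE. It met no other list. Both regions carried TTGCGCAA, shown here because Tal1 is a gene of the blood network the study examined.
Tal1, within the gene, chr4:115057001-115057028: ccttttccccTTGCGCAAtagacagaaa
Tal1, upstream, chr4:115035206-115035285: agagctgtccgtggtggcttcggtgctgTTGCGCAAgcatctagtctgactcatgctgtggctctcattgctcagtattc

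The next members by this count each met 3 other lists. They were the promoters of Plekhg2, Pcf11 and Srsf2, which encodes a splicing factor, an intronic region of Klf13 and an intergenic region upstream of Mdm1. Srsf2 held an octamer, the Klf13 and Mdm1 regions held a composite, and Plekhg2 and Pcf11 held neither. PU.1 in MAC was among the lists of all 5, and RUNX1 in HP among those of 4. Of the members with 2 other lists, those taken by the order of the rule included the regions near Elf2, which met PU.1 in HP and MAC, and Ndufs7, which met PU.1 in MAC and RUNX1 in HP.

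The held regions were assigned to the gene with the nearest coding TSS, which gave 309 genes, of which 8 had 2 held regions. The pairs were 916 bp apart at Nfil3, 4864 bp at Klrb1b, 7559 bp at Cdkl4, 8270 bp at Rbbp7 and 21773 bp at Tal1. They were 77473 bp apart at S1pr1, 77481 bp at Smad3 and 104522 bp at Klf3, and no gene had more than 2.

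Among the gene lists, those of the amino acid stress response had the most members. This pathway raises the transcription factor ATF4 when amino acids or protein folding fail, and with it genes for amino acid uptake and synthesis. Of 47 genes of this list, 9 had a held region, and these were 10 regions or 3.15% of the members, where 0.432% of all C/EBPβ regions, 0.492% of HP-and-MAC-only regions and none of the 377 MES-only regions lay nearest to a gene of the list. The genes were the transporters Slc7a5 and Slc1a4, the amino acid enzymes Pycr1 (proline synthesis) and Got1 (aspartate aminotransferase), the regulators Ddit3 (CHOP), Trib3 and Nfil3, the endoplasmic reticulum gene Herpud1 and Klhl24. Of the aminoacyl-tRNA synthetases, which load tRNAs with amino acids, Sars and Iars had a held region, 2 of 20 genes and 0.631% of the members against 0.0711% of all C/EBPβ regions. These lists were made with earlier results of these data known and received no test.

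Of these 12 regions, 11 were promoter-proximal, 8 held a composite (66.7%) and 2 an octamer, both at Nfil3. In the other 305 held regions the composite was in 34 (11.1%) and the octamer in 216 (70.8%). The windows of the 8 are shown because they carry the composite in place of the octamer.
Herpud1, chr8:94386261-94386340: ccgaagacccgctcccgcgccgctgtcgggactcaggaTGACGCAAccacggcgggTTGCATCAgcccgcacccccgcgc
Slc7a5, chr8:121898562-121898641: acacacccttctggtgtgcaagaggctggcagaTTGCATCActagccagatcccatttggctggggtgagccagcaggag
Ddit3, chr10:127290443-127290522: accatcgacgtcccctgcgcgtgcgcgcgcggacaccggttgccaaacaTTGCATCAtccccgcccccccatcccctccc
Slc1a4, chr11:20332700-20332727: aggctggagaTGATGCAAcgcaggaggc
Pycr1, chr11:120643803-120643882: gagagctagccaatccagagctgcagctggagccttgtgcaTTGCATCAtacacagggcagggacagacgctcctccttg
Got1, chr19:43524669-43524748: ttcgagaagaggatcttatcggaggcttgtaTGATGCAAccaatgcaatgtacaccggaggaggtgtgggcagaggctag
Sars, chr3:108444152-108444231: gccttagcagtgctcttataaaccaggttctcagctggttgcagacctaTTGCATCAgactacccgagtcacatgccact
Iars, chr13:49682127-49682154: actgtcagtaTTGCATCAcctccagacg

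The Herpud1 region, centred 128 bp upstream of the start site, held 2 composites, with places 120 in MES, 185 in HB, 11 in HP and 6 in MAC. The Iars region, 13 bp downstream, had places 16, 27, 36 and 1848 in the same order. Slc7a5 was bound 9084 bp into the gene, in an intron, and was the member of these lists farthest from its start site. Its places were 31, 392, 172 and 1472. Ddit3 was bound 310 bp upstream, in an intron of the neighbouring Mbd6, with places 190, 209, 2059 and 12121. Trib3 stood late in the MES list, at 1080 of 1177, and at 405 in HB, 906 in HP and 5052 in MAC, and held neither motif in its window. None of these 12 regions had a peak in HE.

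Among the genes of bZIP factors, Nfe2l2 (NRF2, a regulator of the oxidative stress response) and Creb3l1 had a held region beside Ddit3 and Nfil3, so that 4 of 51 genes and 5 members (1.58%) belonged to this list against 0.641% of all C/EBPβ regions. The Nfe2l2 region lay 1198 bp into the gene, carried TTGCGCAA and stood at 35 in MES, 24 in HB, 94 in HP and 3091 in MAC. The clock genes Per1 and Cry2 each had a region, 30 and 540 bp upstream of their start sites. These were 2 of 18 circadian genes and 0.631% of the members, against 0.199% of all C/EBPβ regions. Both carried an octamer, TTGCGCAA at Cry2.
Nfe2l2, chr2:75703425-75703504: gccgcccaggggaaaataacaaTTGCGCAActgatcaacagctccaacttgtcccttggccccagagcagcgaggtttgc
Cry2, chr2:92434569-92434648: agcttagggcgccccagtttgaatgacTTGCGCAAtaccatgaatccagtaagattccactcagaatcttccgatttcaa

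Of 25 immediate early genes, Ier2 and Myc had a held region (0.631% of the members against 0.542% of all C/EBPβ regions), and both regions carried an octamer and a composite. For this list HP-and-MAC-only regions had a higher share, 0.765%, and MES-only regions had none. The Ier2 region stood at 792 in MES, 416 in HB and 713 in HP but at 55 in MAC. Of 16 factors of the study network, Tal1 and Runx1 had a held region (3 members, 0.946%, against 0.275%). The share was 0.710% in HP-and-MAC-only regions and 0.531% in MES-only regions. The Runx1 region lay 18294 bp upstream of the nearest curated start site, in an intron, and met PU.1 in HP and MAC. Its places were 541 in MES, 299 in HB, 40 in HP and 436 in MAC. Atg7, of the 23 autophagy genes, had 1 intronic region (0.315% against 0.105%). No held region was nearest to any of the 27 macrophage genes, 18 mesoderm genes or 99 ribosomal protein genes, where all C/EBPβ regions had 0.299%, 0.116% and 0.414%. Taking 3 counts as the limit that a count of 0 allows, 0 of 317 regions allows a share of up to 0.946%, so a lower share than in all regions was not detectable.

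The regions that lacked 1 of the 4 lists were described in the same way, with no test. An octamer was in 65.1% of the 43 without HP, 47.2% of the 233 without HB, 30.6% of the 85 without MES and 66.7% of the 6 without MAC, where the held regions had 68.8%. In the same order, TTGCGCAA was in 37.2%, 19.7%, 21.2% and 33.3%, against 43.5% of held regions. Promoter-proximal regions made up 18.6%, 43.8%, 18.8% and 50% of them, against 49.5% of held regions. The composite was in 25.8% of the regions without HB, against 13.2% of held regions.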

How the data were processed

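The deposited files are peak lists of 14 ChIP-seq samples, with the chromosome, start and end of each peak, which is neither a count nor a score, and no value per peak. According to the study's methods and processing notes, the authors trimmed reads with CutAdapt, aligned them to mm10 (GRCm38) with Bowtie, removed duplicates with Picard, called peaks with MACS against input with a threshold chosen by eye per list, refined them with polyPeak and set them to 400 bp around the summit. Some lists joined repeat sequencing runs. Tool versions are not given in the sources used here, and read depth was not used. The 14 lists held 158488 peaks, of which 1 on mitochondrial DNA was left out.

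Peaks were merged at 1 bp of overlap. Features were read in 400 bp windows at the mean peak centre, from RefSeq GRCm38 sequence and annotation (26032 coding start sites, 403 tRNA genes). Shares have exact (Clopper-Pearson) 95% intervals and differences Newcombe intervals, which cover counting error only. Shares were compared by two-sided Fisher's exact tests with Benjamini-Hochberg adjustment, threshold 0.05. The tests were tested on simulated data. Members, gene lists and tests were chosen with earlier results of these data known. Regions named singly are those with an HE peak, the 10 meeting most other lists, those nearest to genes of 10 lists, and those shown as sequence; 1 of them is not reported here. Others are named to complete small counts, after their values were seen. Python 3.11.15, NumPy 2.4.6, SciPy 1.17.1 and Matplotlib 3.10.9 were used.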

Additional observations from a re-analysis of the deposited data

How the results depend on the processing

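The number of held regions was 317, or 314 when peaks had to share 200 bp, 308 without peaks near tRNA genes, 315 without peaks in regions of 9 or more lists, and 21 when an HE peak was also required. Of 375 values recomputed under other settings, 335 kept their direction and their side of the threshold, or stayed within 1.5 times for a count, and 13 turned in direction. Among promoter-proximal regions alone, the octamer difference from MES-only regions was 43.0 points (adjusted p 0.0734) and the composite difference from HP-and-MAC-only regions -5.60 points (adjusted p 0.679). With the HP peak in the first 20% of its list, a setting added after seeing the data, the latter was -7.88 points (adjusted p 0.0882, all by Fisher's exact test). The cause of these changes was not tested. Of the 9 other lists, 5 were called against MES-only regions, 3 in distal regions alone, 1 in promoter-proximal regions alone and 3 with the MES peak in the last 50% of its list. Against HP-and-MAC-only regions 3 were called, and 1 in promoter-proximal regions alone. Against the 8 regions of MES and HB only, 1 was called, and 0 in distal regions alone, in promoter-proximal regions alone or when peaks had to share 200 bp. These subsets test fewer regions. Calls for HP and MAC lists against regions of MES only, or of MES and HB only, cannot be told apart from the selection. Between members with and without an HE peak, the B box difference was -4.51 points without regions near tRNA genes, since that setting removes the tRNA genes. In that setting GATA1 and GATA2 in HP were called instead (2 of 13 against 1 of 295 members each, adjusted p 0.0483, Fisher's exact test), both through the Tal1 and Rpp21 regions. The adjustment there left out the tRNA gene feature, and both values lay just under the threshold of 0.05. Of the values that turned, 12 were called in neither setting. Against the 8 regions of MES and HB only, the octamer difference turned from 31.3 to -6.94 points with 1 mismatch allowed (adjusted p 1), and the composite difference from 0.749 to -6.04 points in distal regions alone (adjusted p 0.839). Against HP-and-MAC-only regions, RUNX1 in HP turned from 0.369 to -0.214 points without tRNA regions, -0.240 in distal and -0.324 in promoter-proximal regions alone. GATA1 in HP turned from 0.0725 to -0.556 points without regions of 9 or more lists, -0.0152 in promoter-proximal regions alone and -0.0245 with 200 bp shared, and GATA2 in HP from -0.704 to 0.606 in promoter-proximal regions alone. Against MES-only regions, GATA2 in HB turned from 0.0502 to -0.265 points without regions of 9 or more lists. Promoter position of HE-bound members turned from -2.04 to 0.680 points with 200 bp shared and 4.35 without tRNA regions. No paired analysis was possible because each group had 1 list, so no samples could be paired, and the McNemar tests pair only windows of the same region. With no counts or heights per peak, the depth behind a missing peak is unknown, and a region without a peak cannot be called unbound.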
